A study of Mus musculus with 8 samples.

Results

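The 8 mice of this experiment were divided into 4 with high and 4 with low expression of glial activation genes, and each set held 2 *PS19* mice and 2 *Adrb1-A187V;PS19* mice. The mice were placed by a score made from their own RNA: for *Trem2*, *Tyrobp*, *Cst7*, *Clec7a*, *Itgax*, *Cd68*, *C4b* and *Gfap*, log2(CPM + 1) was z-scored over the 8 mice and averaged, where CPM are counts scaled to the mouse's total. The high-score and low-score mice were thus chosen by measured values of these 8 genes. The 4 mice with the highest scores are called high-score mice here and the other 4 low-score mice. Because the division was made from expression in these libraries, every gene's difference between high-score and low-score mice below is a description and carries no p-value, and the account concerns genes other than these 8.

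All 8 mice were C57BL/6, 8 mo old and singly housed, and total RNA of the cortex gave 1 library per mouse. Every mouse carried the *PS19* transgene, human 1N4R tau with the P301S mutation under the mouse prion protein promoter, so the comparison holds no mouse without transgenic tau. The 4 *Adrb1-A187V;PS19* mice also carried 1 mutant and 1 normal copy of *Adrb1*, the β1-adrenergic receptor gene, and the 4 *PS19* mice, their littermate controls, did not carry the mutation. The study compared these genotypes to learn how the mutation acts on tau pathology. The comparison of high-score and low-score mice runs across them.

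Microglia are the resident macrophages of the brain, and astrocytes support neurons and synapses. In tau transgenic mice, both cell types turn on sets of genes with age, a reaction called gliosis. TREM2 is a microglial receptor for lipids and lipoproteins that signals through the adaptor TYROBP, and microglia that respond through it shift from homeostatic genes such as *P2ry12* to disease-associated genes such as *Apoe* and *Cst7*. Reactive astrocytes make more of the intermediate filament GFAP.

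The high-score mice had 16207432 to 17733024 counts and the low-score mice 14653222 to 21223754, and the totals differed by less than their spread (2-sided exact permutation test over 70 divisions, p = 0.371, where the smallest possible is 0.0286). Mitochondrial genes held 4.65% and 5.30% (*PS19*) and 5.31% and 5.29% (*Adrb1-A187V;PS19*) of the counts of the high-score mice and 4.58%, 4.91%, 5.09% and 4.71%, in the same order of genotypes, of the low-score mice. Thus 3 of the 4 high-score mice lay above every low-score mouse and the sets overlapped through *PS19* replicate 4, and the part of this share in the gene differences was not tested. Between 2 mice of a genotype, counts differed by 4.83 to 9.94 times sampling noise by a chi-square test, and no 2 libraries of a genotype were copies. Pairs across genotypes were not compared in this way. Levels below are CPM scaled with edgeR's TMM factors, 0.990 to 1.01. Cortical excitatory neuron genes, such as *Camk2a*, summed to 6167 to 6792 CPM in the high-score and 6555 to 6993 CPM in the low-score mice. Choroid plexus RNA differed strongly between libraries within both sets, and *Ttr*, the transthyretin of choroid plexus epithelium, had 129, 11.5, 17.5 and 526 CPM in the high-score mice and 340.4, 28.5, 59.4 and 15.9 in the low-score mice. Genes of the other cell types and regions that a cortical dissection can hold are given at the end.

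The scores left a wide gap. The high-score mice scored 0.92 and 0.82 (*PS19*) and 1.05 and 0.77 (*Adrb1-A187V;PS19*), and the low-score mice −0.80 and −1.09 (*PS19*) and −0.41 and −1.25 (*Adrb1-A187V;PS19*). The mice on either side of the division, both *Adrb1-A187V;PS19*, were at 0.77 and −0.41, a distance of 1.18. *Gfap* was at 749 to 846 CPM of the column total in the high-score mice and 182 to 349 in the low-score mice. *Cst7*, a cystatin of disease-associated microglia, was at 9.44 to 13.6 and 0.53 to 3.20, and *Itgax*, the integrin CD11c, at 10.7 to 13.1 and 1.18 to 2.31. *Trem2* itself was at 27.8 to 34.7 and 13.8 to 21.0, and *Tyrobp* at 26.4 to 27.3 and 11.8 to 17.4. None of the 8 genes overlapped between the sets, which the rule itself favours. The score differed between the genotypes by less than its spread. It averaged 0.04 ± 1.07 (SD, n = 4) in *Adrb1-A187V;PS19* and −0.04 ± 1.05 (SD, n = 4) in *PS19* mice, a difference of 0.07 (2-sided exact permutation test, p = 0.886).

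**Figure D1:**
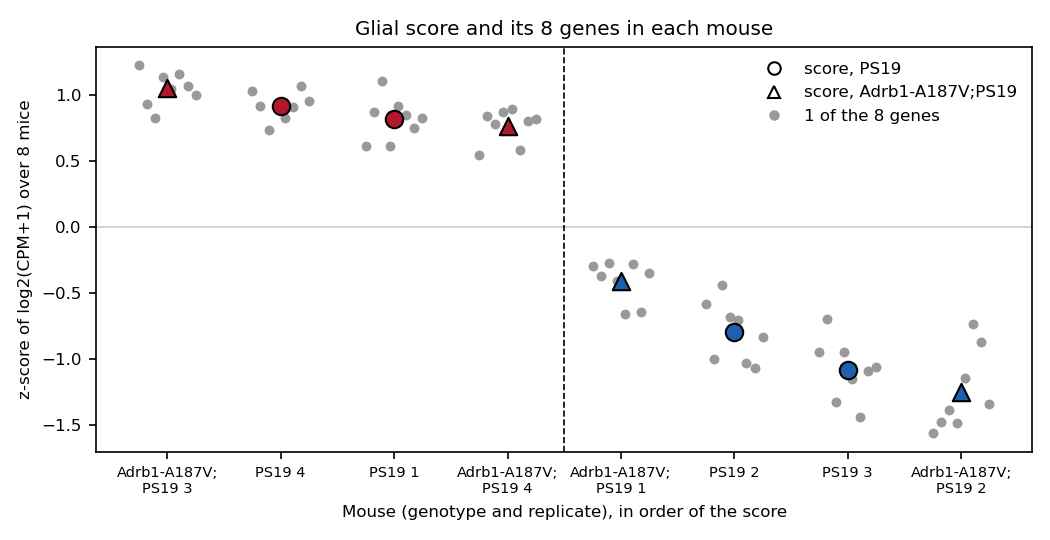
Score of each mouse (large symbols, circles for *PS19* and triangles for *Adrb1-A187V;PS19*, high-score mice in red and low-score mice in blue) and z-scores of its 8 genes (small grey points), on a vertical axis without unit and with the mice in order of the score. The dashed line marks the gap from 0.77 to −0.41 between the sets.

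Of 17187 genes tested besides the 8, 653 (3.8%) were higher in high-score mice without overlap, meaning that the lowest of the 4 high-score values was above the highest of the 4 low-score values, and 461 (2.68%) were lower without overlap. These shares are the background for every count below, and nothing is read from the comparison, since the division used the same libraries. A gene scarce in low-score mice may have passed the filter on low counts through the high-score mice alone. That favours higher genes in these counts and in those below. Among the 653 were 612 protein-coding genes, with a median log2 difference of 0.40 over all 653, and 61 differed by 1 or more on the log2 scale. The 461 had a median of −0.21 and 14 of them reached −1. Over all genes the median difference was −0.01 and the median size 0.09. Genes of 32 lists of glial, immune, neuronal and regional genes made up 117 of the 653 and 13 of the 461. In bulk tissue, more cells of a type and more RNA per cell cannot be told apart.

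Values of a gene are listed below for the 4 high-score mice and then for the 4 low-score mice, in each case the 2 *PS19* mice (replicates 4 and 1, then 2 and 3) before the 2 *Adrb1-A187V;PS19* mice (replicates 3 and 4, then 1 and 2). They are not scaled to gene length, so levels compare mice and not genes. Differences are log2, high minus low, from an edgeR model with genotype as a covariate, ± SE.

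The 10 protein-coding genes that stood highest for their standard error were mostly macrophage, lysosomal and antigen presentation genes. *Lyz2* (ENSMUSG00000069516, chr10:117277331-117282321), lysozyme of myeloid cells, was at 33.7, 28.8, 40.4 and 31.5 CPM vs. 15.4, 15.2, 16.3 and 15.9 CPM, a difference of 1.1 ± 0.09. *Cd74* (ENSMUSG00000024610, chr18:60803848-60812646), the invariant chain that escorts MHC class II molecules, was at 28.9, 24.8, 25.1 and 17.7 vs. 7.04, 6.56, 8.64 and 8.19 CPM (1.66 ± 0.14), a fitted fold of 3.16 and the widest of the 10. *Lag3*, an immune checkpoint receptor that binds MHC class II, was at 31.4, 26.8, 29.9 and 30.2 vs. 12, 10.7, 15.9 and 7.81 CPM (1.36 ± 0.15). For each of these genes, chosen among those without overlap, the lowest high-score mouse stood well above the highest low-score mouse. *Mpeg1*, a pore-forming protein of macrophages, averaged 80.2 ± 3.18 CPM (SD, n = 4) against 42.9 ± 6.37, and *C1qa*, a chain of the first complement component, 113 ± 8.36 against 57.2 ± 10.1. The class I genes *B2m* and *H2-D1* differed by 0.70 ± 0.06 and 0.70 ± 0.08. Smaller differences belonged to the lysosomal proteases *Ctsd* (0.59 ± 0.07) and *Ctsz* (0.60 ± 0.07) and to *Cd63* (0.56 ± 0.06), a tetraspanin of late endosomes.

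Disease-associated microglia genes outside the score were higher without overlap for 18 of 27 tested, and none was lower (median difference 0.44). Members whose sets did not overlap are named here and in the lists below after their values were seen, besides those named for their level. *Apoe* (ENSMUSG00000002985, chr7:19696109-19699188), the main lipid carrier of the brain, was at 2166, 2047, 2022 and 1831 CPM in the high-score mice and 1466, 1362, 1682 and 1431 in the low-score mice (0.44 ± 0.06). *Lgals3*, a galectin of phagocytes, was scarce, at 1.99, 1.65, 2.3 and 1.7 vs. 0.828, 0.33, 0.48 and 0.527 CPM (1.84 ± 0.33). It may have passed the filter on low counts through the high-score mice alone, which favours higher members in the count. *Ccl6*, a chemokine, was at 10.4, 6.98, 9.68 and 11.7 vs. 2.14, 3.16, 4.32 and 1.87 CPM (1.75 ± 0.23), and *Spp1*, osteopontin, at 15.4, 22, 23.7 and 16.8 vs. 11.5, 11.3, 9.66 and 8.05 (0.95 ± 0.15). A gene without overlap separates the sets in both genotypes by definition. The growth factor gene *Csf1* differed by 0.38 ± 0.08, the protease gene *Ctsb* by only 0.11 ± 0.04, and the receptor tyrosine kinase gene *Axl* by 0.37 ± 0.06. The sets overlapped for the other 9 members, among them *Fth1*, ferritin heavy chain (−0.02 ± 0.06), *Lpl*, lipoprotein lipase (0.26 ± 0.14), and *Gpnmb* (0.48 ± 0.26). *Ch25h* had 1 to 14 counts per mouse and was not tested.

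Homeostatic microglia genes stood higher as well, for 7 of 17 tested without overlap and none lower (median 0.31). *Cx3cr1*, the fractalkine receptor, was at 88.5, 75.3, 81.1 and 79.3 vs. 58.1, 53.1, 62.1 and 58.2 CPM (0.49 ± 0.06). *Csf1r*, whose signal microglia need to survive, was at 142, 118, 137 and 136 vs. 101, 86.3, 106 and 91.4 (0.47 ± 0.07). *Fcrls* (0.64 ± 0.08), *Olfml3* (0.51 ± 0.09), *Tgfbr1* (0.37 ± 0.07) and *Siglech* (0.28 ± 0.09) were among the others. The values of *P2ry12*, a purinergic receptor, and *Tmem119* overlapped, with differences of 0.14 ± 0.10 and 0.17 ± 0.11.

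Of 18 signalling and transcription factor genes that act with TREM2 and TYROBP or set microglial identity, 10 were higher without overlap and none lower (median 0.54). *Spi1*, which encodes the transcription factor PU.1 of the myeloid lineage, was at 7.59, 7.23, 7.05 and 7.13 vs. 5.73, 4.44, 5.88 and 3.98 CPM (0.55 ± 0.15), and *Irf8*, its partner in microglia, at 14.5, 13.5, 13.9 and 14.4 vs. 8.84, 8.59, 10.4 and 6.56 (0.72 ± 0.13). The high-score mice lay within a narrow range for both factors. *Ptprc*, the leukocyte phosphatase CD45, differed by 1.07 ± 0.14, the adaptor *Fyb* by 0.93 ± 0.15, the phosphatase *Ptpn6* by 0.75 ± 0.14, and *Runx1* by 0.84 ± 0.25. *Inpp5d*, a lipid phosphatase that opposes phosphoinositide 3-kinase, was at 21.6, 22, 23 and 21.1 vs. 18.6, 16.7, 16.7 and 14.3 (0.41 ± 0.09). *Syk*, the kinase recruited by TYROBP, overlapped between the sets (0.35 ± 0.17), as did *Plcg2* (0.46 ± 0.19).

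PU.1 binds DNA around the core letters GAGGAAGT, which were searched on both strands of windows of 250 bases before gene starts, in RefSeq sequence of GRCm38.p6. The letters stood in 802 of 32841 windows of that length (2.44%), and a match is a description of letters and no binding site. A window was matched to 333 of the 441 list genes tested, under 80%, so no share over a list is given. *Ctsc* and *Pik3cg*, both higher without overlap, held the letters on the opposite strand and are not printed. *Spp1*, *Inpp5d* and *Vav1*, an exchange factor of the same pathway that was also higher without overlap (0.61 ± 0.18), held the letters, printed 5′ to 3′ on the strand of the gene with the match in capitals. The stretches lie at chr5:104434958-104435077 (plus strand), chr1:87620192-87620311 (plus) and chr17:57278980-57279099 (plus).
Spp1: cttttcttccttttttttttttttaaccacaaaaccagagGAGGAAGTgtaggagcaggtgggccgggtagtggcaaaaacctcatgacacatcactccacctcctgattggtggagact
Inpp5d: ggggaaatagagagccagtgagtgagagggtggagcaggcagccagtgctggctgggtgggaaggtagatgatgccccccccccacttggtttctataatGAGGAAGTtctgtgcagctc
Vav1: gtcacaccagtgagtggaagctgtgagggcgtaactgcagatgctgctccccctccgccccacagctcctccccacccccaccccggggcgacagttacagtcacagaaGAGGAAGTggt

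Fc receptor and phagocytosis genes gave the fullest list, with 15 of 17 tested higher without overlap and none lower (median 0.74). *Ctss*, a lysosomal protease of microglia that trims the invariant chain, was at 141, 137, 144 and 132 CPM vs. 82.6, 68.6, 92 and 56 (0.89 ± 0.11). *Fcgr3*, an activating receptor for immunoglobulin G, was at 23.5, 18.6, 19.4 and 20.7 vs. 13.6, 13.6, 12.2 and 7.95 (0.81 ± 0.13), and *Fcer1g*, the signalling chain it shares with other receptors, at 16.7, 12.7, 18.6 and 14.1 vs. 11.1, 9.53, 10.4 and 6.61 (0.74 ± 0.16). *Fcgr2b*, the inhibitory receptor of the family, differed by 0.93 ± 0.14, so activating and inhibitory members were higher together. *Itgb2*, the shared integrin chain of leukocytes, differed by 0.97 ± 0.12, *Mertk*, a receptor for dying cells, by 0.27 ± 0.07, and *Cd33*, a sialic acid receptor, by 0.41 ± 0.11. *Coro1a*, an actin-binding protein, had no difference between the means (0.00 ± 0.06), and *Itgam* overlapped (0.39 ± 0.15). *Msr1* had 1 to 7 counts per mouse and was not tested.

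Complement genes were higher without overlap for 7 of 17 tested and lower for 1 (median 0.32). All 3 chains of C1q were among the 7, and *C1qb* was at 96.4, 89.8, 104 and 93 vs. 59.8, 47.4, 66.4 and 41.1 CPM (0.84 ± 0.12), and *C1qc* differed by 0.76 ± 0.12. *C3*, the central component, was scarce, at 2.47, 1.9, 3.86 and 2.21 vs. 1.17, 1.09, 1.26 and 0.862 (1.25 ± 0.29), and *C3ar1*, the receptor for its fragment, was at 6.69, 5.88, 7 and 6.45 vs. 3.87, 2.69, 3.78 and 3.45 (0.93 ± 0.16). *C4a* differed by 0.29 ± 0.23 without overlap, but it is a near-identical copy of *C4b* and its counts are uncertain. *Csmd2*, of a family of membrane complement inhibitors expressed in neurons, was the lower gene, at 82.3, 73.8, 82.5 and 79.9 vs. 102, 95, 88.5 and 97.3 (−0.26 ± 0.06), and *Csmd1* overlapped (−0.11 ± 0.06).

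Cytokine and chemokine genes were higher without overlap for 5 of 13 tested and lower for none (median 0.38). *Cxcl10*, an interferon-induced chemokine, was at 1.99, 2.57, 2.35 and 2.72 CPM vs. 1.73, 0.142, 0.72 and 0.239 (1.9 ± 0.50), *Cxcl16* at 3.13, 3.74, 4.25 and 3.91 vs. 1.93, 2.41, 1.5 and 1.44 (1.05 ± 0.23), and *Ccl3* at 1.2, 1.59, 1.74 and 2.72 vs. 0.414, 0.755, 1.14 and 0.862 (1.18 ± 0.31). All 3 were scarce in every mouse. *Cxcl10*, lowest at 0.142 CPM, may have passed the filter on low counts only because of the high-score mice, which favours higher members in the count. The members with the most counts overlapped, namely *Cx3cl1*, the neuronal fractalkine (−0.08 ± 0.06), *Cxcl14* (0.06 ± 0.06) and the alarmin *Il33* (−0.01 ± 0.09). *Il1b*, *Il6*, *Tnf*, *Ccl2*, *Ccl4* and *Ccl5* had 0 to 24 counts per mouse and were not tested.

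**Figure D2:**
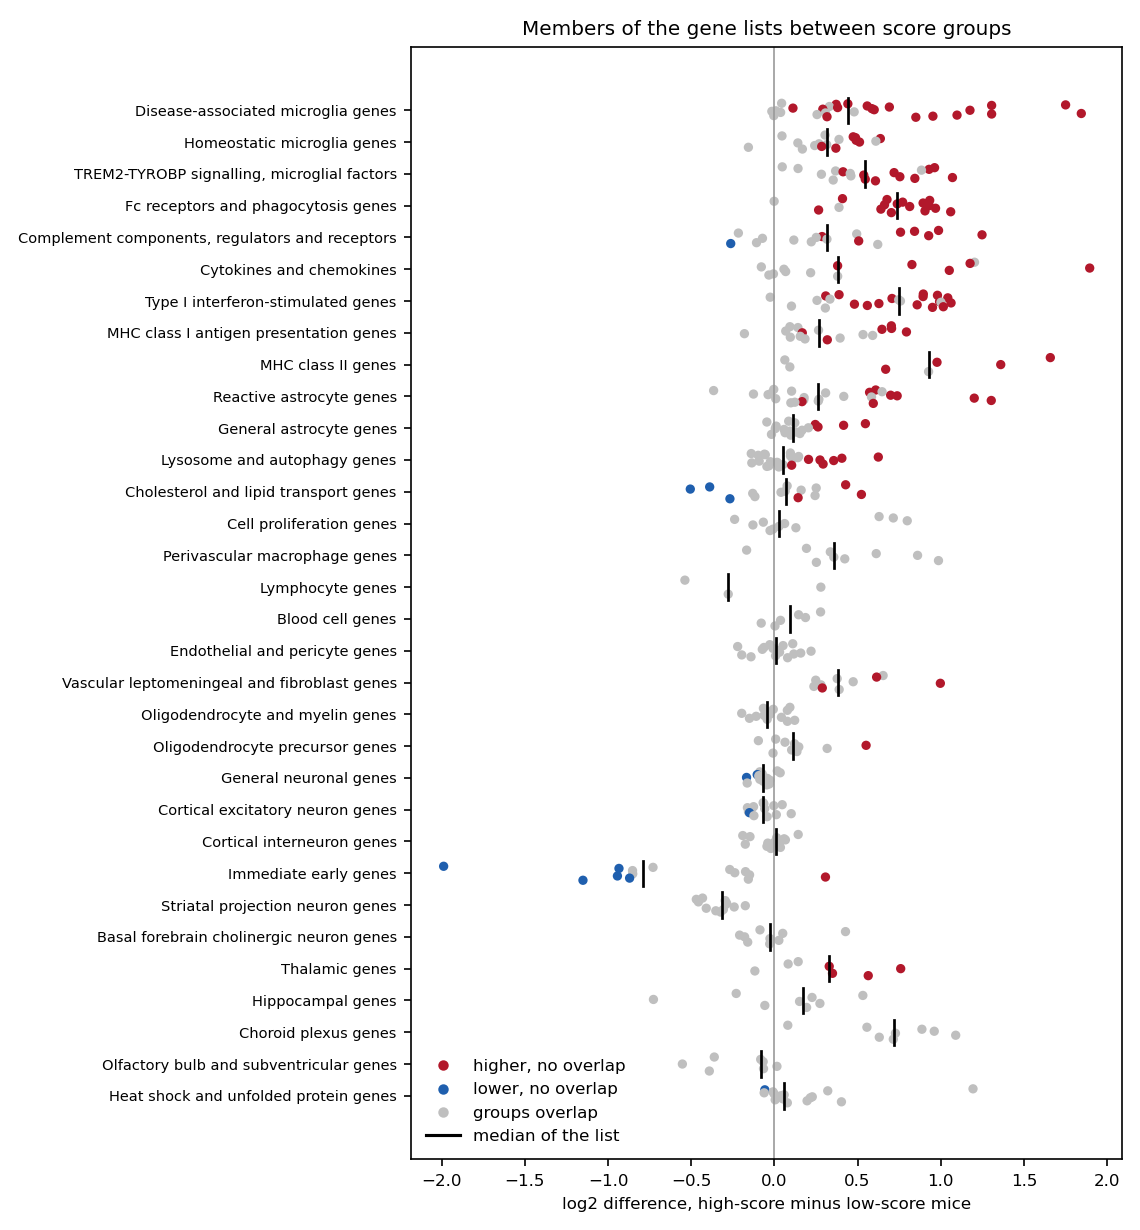
Difference between high-score and low-score mice (log2, horizontal axis) of each gene tested in each list (rows), with genes whose sets did not overlap in colour (red higher, blue lower), the others in grey and a black bar at the median of the list. The medians run from −0.79 for immediate early genes to 0.93 for MHC class II genes.

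Type I interferon-stimulated genes, which cells switch on through the receptor for interferons α and β to hold back viruses, were higher without overlap for 15 of 23 tested and lower for none (median 0.75, 0.69 within *PS19* and 0.58 within *Adrb1-A187V;PS19*). *Ifit3* (ENSMUSG00000074896), which binds foreign RNA together with *Ifit1*, was at 17.3, 24.2, 20.3 and 18.4 CPM vs. 10.8, 7.84, 10.6 and 9.91 (1.04 ± 0.13). *Ifit1* was at 6.14, 9.43, 9.35 and 6.9 vs. 5.73, 3.35, 4.38 and 3.88 (0.89 ± 0.20). *Ifit3b* is a near-identical copy of *Ifit3*, so the counts of both are uncertain. *Oasl2*, of the oligoadenylate synthetase family, was at 10.6, 11.1, 13.5 and 11.3 vs. 9.25, 4.25, 5.46 and 3.98 (1.06 ± 0.21), and *Bst2*, which tethers virus particles, at 8.85, 7.66, 8.96 and 8.94 vs. 6.35, 3.68, 4.44 and 4.26 (0.89 ± 0.17). *PS19* replicate 2 was the highest of the low-score mice for *Oasl2*, *Bst2* and *Ifi27*. Of the regulators, *Stat2* (0.10 ± 0.09), *Irf7* (0.75 ± 0.23) and *Irf9* (0.26 ± 0.13) overlapped. *Usp18*, a brake on the receptor, differed by 0.95 ± 0.29. *Ifi27* differed by 0.39 ± 0.08, and *Ifit2*, with 14.2, 16.5, 14.6 and 14.3 vs. 14.6, 16.5, 14 and 15.5, showed no difference between the means (−0.03 ± 0.09).

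The factors of this response bind the interferon-stimulated response element, which was searched as GAAA, any 2 bases and GAAA on both strands of the same windows. It stood in 978 of 32841 windows (2.98%), and 16 of the 23 genes had a window. Stretches of 120 bases are shown for 4 of the genes that were higher without overlap and for *B2m*, the light chain of MHC class I, because each holds the letters, in capitals, near its start. *Usp18*, *Oas1b*, *Ifi27*, *Ifi27l2a*, *Rtp4* and *Parp14* were among those with no entry. The stretches lie at chr19:34640764-34640883 (plus strand), chr19:34583367-34583486 (plus), chr8:71537517-71537636 (minus), chr5:120907526-120907645 (minus) and chr2:122147508-122147627 (plus).
Ifit1: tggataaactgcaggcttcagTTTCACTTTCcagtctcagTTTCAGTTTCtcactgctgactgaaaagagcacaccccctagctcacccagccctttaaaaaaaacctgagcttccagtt
Ifit3: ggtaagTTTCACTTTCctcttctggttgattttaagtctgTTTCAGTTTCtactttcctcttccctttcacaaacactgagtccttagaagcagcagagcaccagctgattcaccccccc
Bst2: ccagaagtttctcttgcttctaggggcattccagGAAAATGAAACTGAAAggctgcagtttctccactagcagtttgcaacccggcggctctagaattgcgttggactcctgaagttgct
Oas1a: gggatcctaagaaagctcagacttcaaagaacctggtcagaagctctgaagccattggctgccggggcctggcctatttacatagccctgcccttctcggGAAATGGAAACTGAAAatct
B2m: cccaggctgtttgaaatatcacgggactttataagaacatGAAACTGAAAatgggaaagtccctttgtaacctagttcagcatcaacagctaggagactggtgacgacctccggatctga
In *Ifit1* and *Ifit3* the letters stand on the opposite strand in 2 separate places, and in *Bst2* and *Oas1a* the matches overlap. *Oas1a* was at 1.33, 1.84, 1.51 and 1.47 CPM vs. 0.828, 0.472, 1.02 and 0.814 (0.99 ± 0.31).

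Class I antigen presentation genes were higher without overlap for 6 of 17 tested and lower for none (median 0.27). *B2m* (ENSMUSG00000060802), whose promoter stretch is printed above, was at 144, 139.6, 149.7 and 138 CPM vs. 92, 84, 95.6 and 79.7 (0.70 ± 0.06). The heavy chain gene *H2-K1* was at 62, 54.4, 63.5 and 53.3 vs. 34.3, 40.4, 38.3 and 35.8 (0.65 ± 0.08), and *Nlrc5*, the transactivator of class I genes, at 3.01, 3.67, 3.47 and 2.83 vs. 2.62, 1.7, 1.86 and 1.44 (0.79 ± 0.23). The H2 genes are near-identical to one another and their counts are uncertain. *Tapbp*, which loads peptide, differed by 0.32 ± 0.08, and *Pdia3* by 0.17 ± 0.05, while *Calr* (0.09 ± 0.06), the transporter *Tap1* (0.39 ± 0.17) and the immunoproteasome gene *Psmb8* (0.53 ± 0.21) overlapped. Of 7 class II genes, 4 were higher without overlap (median 0.93), and *H2-Ab1* was at 6.75, 6.19, 5.77 and 3.96 vs. 1.66, 2.03, 2.22 and 2.78 (1.36 ± 0.22). *H2-Aa* differed by 0.98 ± 0.23 and *H2-DMb1* by 0.67 ± 0.28. The class II median was 1.28 within *PS19* and 0.25 within *Adrb1-A187V;PS19* mice. The gene-by-gene test given at the end cannot decide whether the genotypes differ in this. *Adrb1-A187V;PS19* replicate 4 had the lowest *Cd74*, *H2-Aa* and *H2-Ab1* of the high-score mice. *H2-DMa* (0.09 ± 0.11) and *Ciita* (0.06 ± 0.21), the class II transactivator, overlapped.

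**Figure D3:**
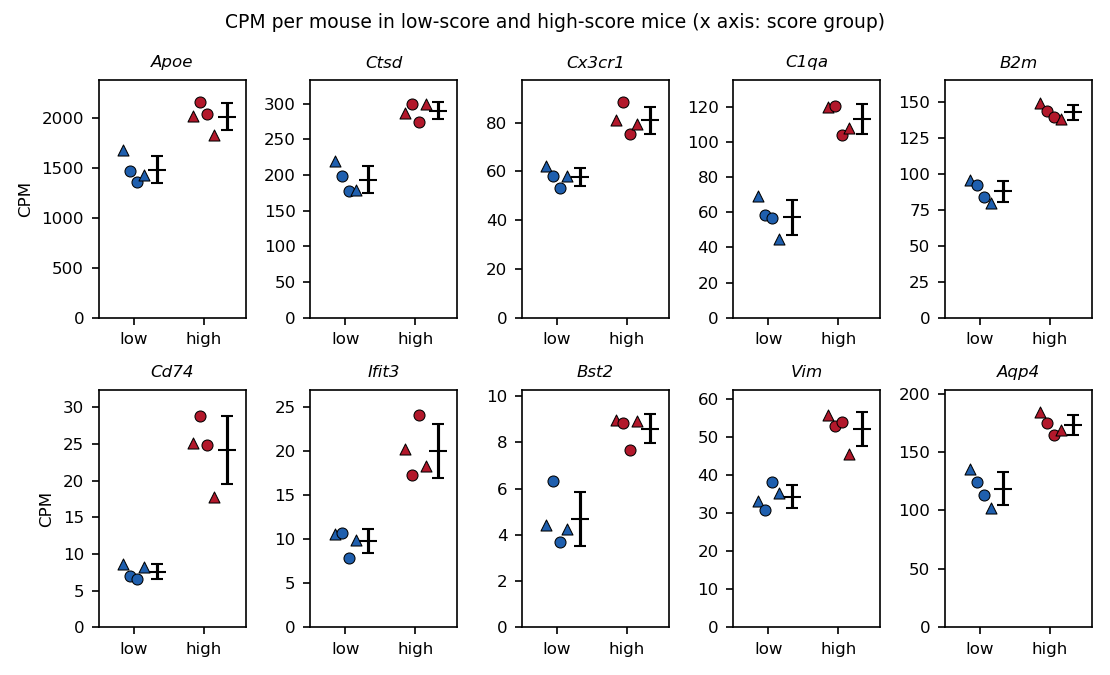
Normalised level (CPM, vertical axes from 0) of 10 genes in each mouse, circles for *PS19* and triangles for *Adrb1-A187V;PS19*, high-score mice in red and low-score mice in blue, with bars for mean ± SD (n = 4). In every panel the red points lie above the blue points, as for *Ifit3* at 17.3 to 24.2 against 7.84 to 10.8 CPM.

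Of 25 reactive astrocyte genes tested besides *Gfap*, 8 were higher without overlap and none lower (median 0.26). *Serpina3n*, a serine protease inhibitor, was at 44.8, 34.5, 40 and 45.6 CPM vs. 21.9, 15.3, 20.2 and 10.3 (1.3 ± 0.17), and *Osmr*, the oncostatin M receptor chain, at 11.1, 8.76, 12 and 12.1 vs. 5.25, 4.3, 5.46 and 4.21 (1.2 ± 0.14). *Vim*, the filament partner of GFAP, was at 52.8, 53.8, 55.9 and 45.6 vs. 30.8, 38.1, 33.2 and 35.2 (0.59 ± 0.08). *Ggta1* (0.74 ± 0.12), *Gbp2* (0.70 ± 0.16) and *Cd44* (0.57 ± 0.18) were also higher, and *Stat3*, the transcription factor behind many reactive genes, was higher by 0.17 ± 0.05. *Lcn2*, *Steap4* and *Slc10a6* had 0 to 18 counts per mouse and were not tested. Of 18 general astrocyte genes, 4 were higher without overlap (median 0.11). They were *Aqp4*, the water channel of astrocyte endfeet, at 175, 164, 184 and 169 vs. 124, 113, 135 and 102 (0.55 ± 0.08), *Clu*, at 997, 966, 1009.6 and 903 vs. 719, 686, 791 and 711 (0.42 ± 0.05), the gap junction gene *Gja1* (0.26 ± 0.06) and *Atp1b2* (0.25 ± 0.05). *Slc1a2*, the main glutamate transporter, overlapped (0.06 ± 0.04), as did *Glul*, glutamine synthetase (0.01 ± 0.04).

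Lysosome and autophagy genes were higher without overlap for 7 of 25 tested and lower for none, with a median of 0.05. The 7 encode lysosomal hydrolases, membrane proteins or secreted lysosomal factors. *Grn*, progranulin, was at 75.3, 72.6, 72.5 and 75.5 CPM vs. 52.5, 42.9, 53.9 and 43.3 (0.62 ± 0.08), *Hexa* at 68.2, 67.1, 73.5 and 62.9 vs. 54.7, 47.3, 54.2 and 49.3 (0.41 ± 0.07), and *Man2b1*, *Npc2*, *Lgmn*, *Lamp2* and *Scarb2* differed by 0.36, 0.29, 0.27, 0.21 and 0.10. The letters TCACGTGA, core of the CLEAR element of lysosomal genes, stood in 258 of the 32841 promoter windows (0.786%). The autophagy genes *Sqstm1* (−0.03 ± 0.05), *Map1lc3b* (−0.02 ± 0.05) and *Becn1* (−0.10 ± 0.06) overlapped, as did *Tfeb*, the regulator of lysosomal genes (0.03 ± 0.10), *Psap* (0.05 ± 0.05) and the proton pump gene *Atp6v1b2* (−0.05 ± 0.04). Cholesterol and lipid transport genes went both ways, with 3 of 14 tested higher and 3 lower without overlap. The higher genes were the cholesterol exporter *Abca1*, at 68, 72.8, 77.8 and 71.4 vs. 49.5, 52.9, 59.7 and 53.4 (0.43 ± 0.06), the lipid droplet coat *Plin2* (0.52 ± 0.16) and *Soat1*, which esterifies cholesterol (0.14 ± 0.07). Among the lower genes was the synthesis enzyme *Sqle*, at 51.8, 60.8, 55.1 and 53.3 vs. 68.2, 69.6, 65.7 and 62.6 (−0.27 ± 0.06). *Lrp1* overlapped (0.06 ± 0.05).

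The 8 protein-coding genes that stood lowest for their standard error were 4 stimulus-induced genes, an ephrin receptor gene and 3 genes of sterol balance. *Arc* (ENSMUSG00000022602, chr15:74669083-74672570), an immediate early gene of synaptic activity, was at 38.7, 46.5, 55.4 and 49.7 CPM in the high-score mice and 171, 249.6, 244 and 92.6 in the low-score mice (−1.99 ± 0.24), a fitted fold of 3.97 in favour of the low-score mice. *Nr4a1*, an orphan nuclear receptor induced by activity, was at 40.8, 41.8, 60.5 and 52.4 vs. 109, 135, 129 and 61.6 (−1.15 ± 0.20). The low-score mice varied widely for both genes, and *Adrb1-A187V;PS19* replicate 2 was the lowest of them. *Csrnp1* was at 5.96, 8.14, 5.65 and 5.83 vs. 10.1, 11.8, 13.1 and 10.3 (−0.84 ± 0.14), *Klf10* at 18.4, 18.3, 23.2 and 27.4 vs. 44.5, 40.1, 34.9 and 30.9 (−0.78 ± 0.14), and the ephrin receptor *Ephb6* differed by −0.32 ± 0.06. *Insig1*, which holds the sterol sensor in the endoplasmic reticulum, was at 63.6, 63.6, 71.3 and 61.5 vs. 89.6, 94.9, 85.4 and 90.3 (−0.47 ± 0.06). *Hmgcs1*, an early enzyme of cholesterol synthesis, was at 186, 179, 182 and 183 vs. 226, 255, 226 and 235 (−0.37 ± 0.05), and *Stard4*, a cholesterol carrier, differed by −0.39 ± 0.06. The 3 sterol genes differed little among the high-score mice.

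Immediate early genes were lower without overlap for 5 of 14 tested and higher for 1 (median −0.79). *Junb* was at 29.9, 42.6, 44.7 and 41.8 CPM vs. 67.2, 84.8, 92.8 and 45.8 (−0.87 ± 0.18), and *Dusp1*, a phosphatase that ends MAP kinase signals, at 18.2, 18.7, 20.2 and 16.6 vs. 29.1, 45.3, 43.5 and 23.1 (−0.93 ± 0.17). *Ier2* differed by −0.94 ± 0.24. *Jun* was the gene that lay higher, at 63, 62.2, 54 and 52.4 vs. 49.9, 43.4, 52.2 and 41.5 (0.31 ± 0.08). *Fos* overlapped, at 11.8, 7.29, 14.2 and 15.1 vs. 23.2, 29.7, 27.2 and 8.24 (−0.85 ± 0.31), because *Adrb1-A187V;PS19* replicate 2 had 8.24 CPM, and *Egr1* (−0.27 ± 0.16), *Egr3* (−0.17 ± 0.08) and *Npas4* (−0.16 ± 0.16) overlapped as well. The median was −0.59 within *PS19* and −0.27 within *Adrb1-A187V;PS19* mice, and −0.87 without *Adrb1-A187V;PS19* replicate 2.

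**Figure D4:**
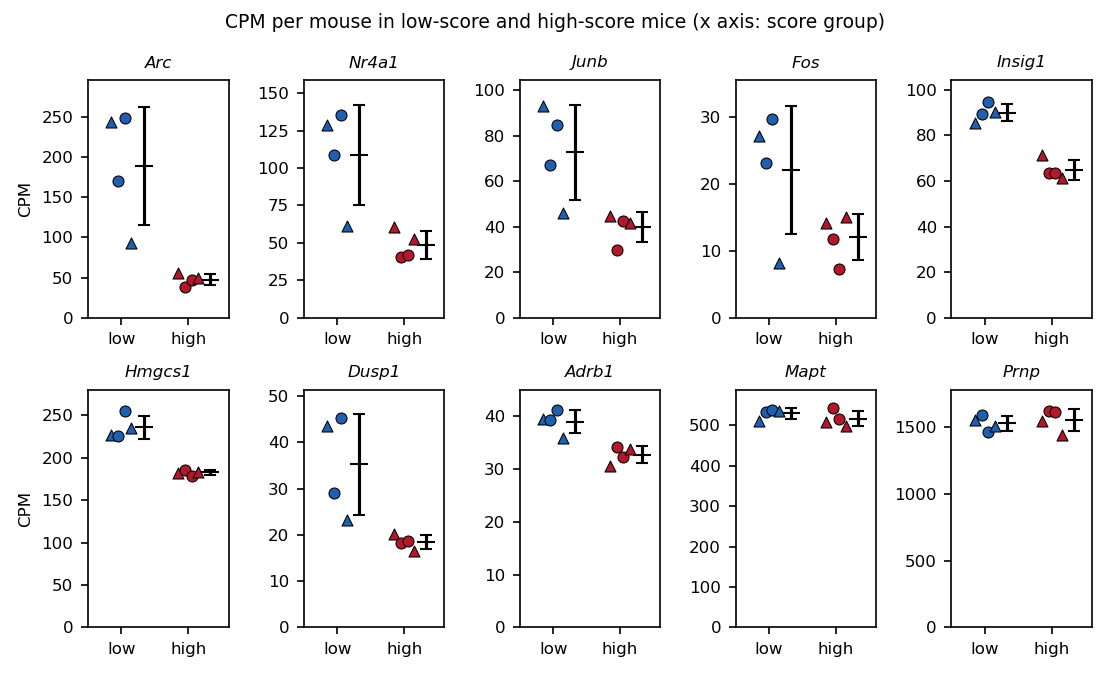
Normalised level (CPM, vertical axes from 0) of 10 genes in each mouse, with symbols for genotype, colours for score set and bars for mean ± SD (n = 4). *Arc*, *Nr4a1*, *Junb*, *Dusp1*, *Insig1*, *Hmgcs1* and *Adrb1* are lower in the red points without overlap, while *Fos*, *Mapt* and *Prnp* overlap.

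General neuronal genes were close to level, with 2 of 16 tested lower without overlap and none higher (median −0.07). *Snap25*, of the vesicle fusion machinery, was at 2169, 2003, 2005 and 2080.2 CPM vs. 2244, 2491, 2245 and 2295 (−0.17 ± 0.04), and the neurofilament gene *Nefl* differed by −0.10 ± 0.04. *Syt1* overlapped (−0.07 ± 0.05). Of 15 cortical excitatory neuron genes, *Nrgn* was the only one without overlap, at 1135, 1033, 1118 and 927 vs. 1186, 1138, 1187 and 1163 (−0.15 ± 0.06), and *Camk2a* overlapped (−0.06 ± 0.04). All 14 interneuron genes tested overlapped, including *Gad1* (0.01 ± 0.05) and *Cck* (−0.19 ± 0.05). *Mapt*, the mouse tau gene, was at 542, 515, 508 and 499 vs. 532, 539, 511 and 537 (−0.04 ± 0.04). *Prnp*, whose promoter drives the transgene, was at 1621, 1613, 1547 and 1442 vs. 1592, 1461, 1551 and 1509 (0.02 ± 0.04). The level of the human transgene was not analysed here, and any of its reads that align to *Mapt* or *Prnp* cannot be told apart from mouse reads. *Adrb1* (ENSMUSG00000035283, chr19:56722372-56724862) was at 34.2, 32.3, 30.7 and 33.9 CPM vs. 39.4, 41.2, 39.5 and 36, lower in high-score mice without overlap (−0.25 ± 0.07; 32.8 ± 1.61 against 39 ± 2.18 CPM, SD, n = 4) and in both genotypes, with log2 differences of −0.28 within *PS19* and −0.22 within *Adrb1-A187V;PS19* mice.

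Markers of other cells and regions were examined because a cortical dissection can include them. Perivascular macrophage genes overlapped for all 9 tested (median 0.36, summed level 41.8 to 50.2 CPM in high-score and 33.2 to 42.2 in low-score mice), with *Mrc1* at 6.93, 8.02, 7.89 and 7.13 vs. 5.25, 6.47, 3.9 and 7.57 (0.36 ± 0.18). Of 15 lymphocyte genes only 3 were tested and none differed without overlap, while *Cd3e*, *Cd3d* and *Cd8a* had 0 to 7 counts per mouse. Blood genes overlapped (6 tested), with *Hbb-bs* at 0.04 ± 0.12, as did 16 endothelial and pericyte genes (median 0.01) and 15 oligodendrocyte and myelin genes (median −0.04). *Gpr17*, of differentiating precursors, was the 1 of 10 oligodendrocyte precursor genes that was higher without overlap, at 42.7, 41.9, 39.1 and 45.4 vs. 31.1, 25.7, 33.1 and 26 (0.55 ± 0.09). Proliferation genes overlapped for 11 tested, with *Pcna* at 0.03 ± 0.07. Of 15 heat shock and unfolded protein genes, *Atf4* was lower by a small margin (−0.06 ± 0.05) and *Hspa8* overlapped (0.05 ± 0.05).

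Vascular leptomeningeal and fibroblast genes were higher without overlap for 3 of 10 tested (median 0.38, summed level 138 to 178 CPM against 116 to 140.5). They were *Col1a1* (0.61 ± 0.14), *Igf2* (1 ± 0.28) and *Pdgfra* (0.29 ± 0.06), which oligodendrocyte precursors express too. Thalamic genes were higher without overlap for 4 of 7 tested (median 0.33, summed level 195 to 207 CPM against 169.8 to 197). They were *Prkcd*, at 17.8, 24.6, 24.8 and 18.7 vs. 12.4, 11.1, 12.7 and 14.7 (0.76 ± 0.12), *Tcf7l2* (0.56 ± 0.14), *Slc17a6* (0.35 ± 0.08) and *Plekhg1* (0.33 ± 0.08), while *Rora* overlapped (−0.12 ± 0.07) and *Gbx2* had 2 to 8 counts per mouse. The part of meningeal or thalamic tissue in the glial differences was not tested. Striatal genes overlapped for all 12 tested, with a median of −0.76 within *PS19* and 0.04 within *Adrb1-A187V;PS19* mice, and *Ppp1r1b* was at 223, 202, 303 and 354 vs. 408, 295, 486 and 218 CPM. Choroid plexus genes overlapped for all 8 tested, with a median of 0.72 that became −0.11 without *Adrb1-A187V;PS19* replicate 4 and 1.37 without *PS19* replicate 2, the mice with the most *Ttr*. All 9 basal forebrain cholinergic, 8 hippocampal and 7 olfactory and subventricular genes tested overlapped (medians −0.03, 0.17 and −0.08). Within *PS19* these medians were −0.43, 0.20 and −1.10, and within *Adrb1-A187V;PS19* mice 0.22, 0.10 and 0.52. The olfactory and subventricular genes thus went opposite ways, with 0 of 7 positive within *PS19* and 7 of 7 within *Adrb1-A187V;PS19* mice.

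**Figure D5:**
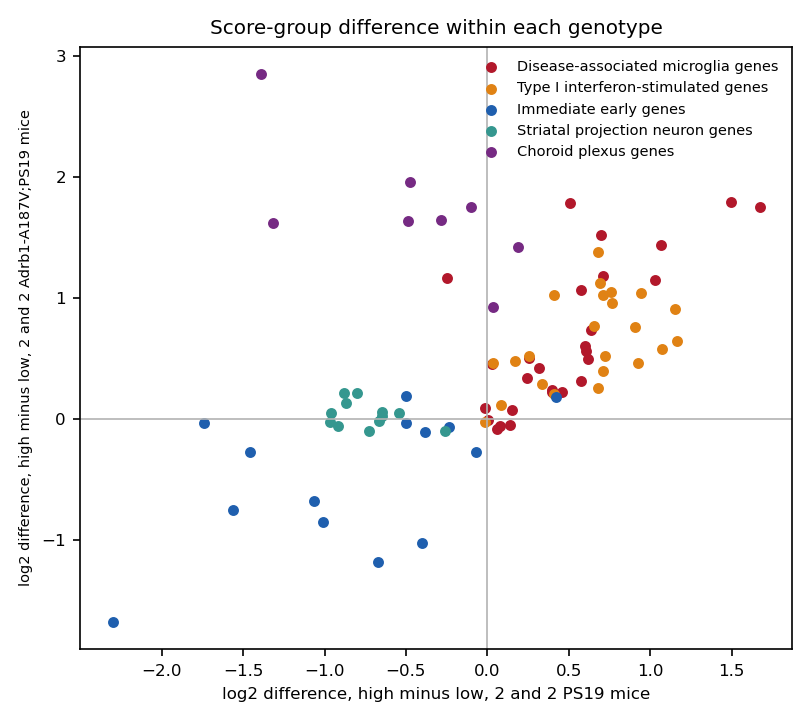
Difference between high-score and low-score mice on the log2 scale computed within the *PS19* mice (horizontal axis, 2 against 2) and within the *Adrb1-A187V;PS19* mice (vertical axis, 2 against 2), 1 point per gene of 5 lists, coloured by list. *Arc* lay at −2.30 and −1.68 and *Apoe* at 0.57 and 0.31, while *Ttr*, at −1.39 and 2.85, had opposite signs.

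The last question was whether the comparison of genotypes, *Adrb1-A187V;PS19* vs. *PS19*, looks different once the score set of each mouse is in the model. With the score set as a covariate, 617 of 17195 genes (3.59%) had an unadjusted p under 0.05 in edgeR's quasi-likelihood test, 321 higher and 296 lower in *Adrb1-A187V;PS19* mice, and 0 passed after Benjamini-Hochberg adjustment. Without it the count was 481 (2.8%), 245 higher and 236 lower, and again 0 passed. The models shared 470 of these genes, 76.2% of the 617 and 97.7% of the 481, all in the same direction. The share of 3.59% lies below the 4.42% of unchanged genes that the test with the score set called in 1 set of simulated counts. The model without the score set was not simulated, so its 2.8% has no such reference. The counts alone therefore show no difference between genotypes. The smallest adjusted p was 0.165 with the score set, shared by *Gapdh* and *Peg10*, and 0.9996 without it. DESeq2 was run on all genes with at least 1 count in any mouse and not on the 17195, so its counts differ from edgeR's in test and in gene set. With the score set, DESeq2's Wald test gave 506 genes with an unadjusted p under 0.05 and 2 that passed adjustment. They were *Peg10*, an imprinted gene (log2 difference 0.49, adjusted p = 0.00124), and the pseudogene *Gm10819* (−1.26, adjusted p = 0.00124). Without the score set it gave 555 and 0. Whether the high-score minus low-score difference itself differed between the genotypes was tested with an interaction term, added after the data had been seen. It gave 1135 genes (6.6%) with an unadjusted p under 0.05 and 0 after adjustment (edgeR's quasi-likelihood test, smallest adjusted p = 0.0688, for the pseudogene *Gm9824*), so with 2 mice of each genotype in each set no gene was shown to differ.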

How the data were processed

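Cortical RNA of 4 *PS19* and 4 *Adrb1-A187V;PS19* mice was analysed from 1 table of raw counts per Ensembl gene. Per the labels and the methods, the authors aligned clean paired-end reads to GRCm38 with HISAT2 2.0.5, counted them with featureCounts 1.5.0-p3 and deposited the counts without normalization. The settings for strand and for reads that map to several places are not given in the sources used here. The deposited table also holds the length of each gene in bases, which was not used, and 0 columns of other samples.

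Groups came from the genotype labels and the score sets from the rule in the report. The members, lists and tests were chosen with earlier results of these data known. Of 54532 genes, the 17195 kept by edgeR's filterByExpr were normalized with TMM factors and fitted in edgeR 4.0.16 (R 4.3.3) with the score set and genotype as terms. SE values were obtained from the F statistic of each fit (log2 difference over the root of F). Apart from the interaction term, no p-value was taken for any gene between the score sets, whose library totals alone were tested. Genes were described by whether the 4 and 4 CPM values overlapped, within-genotype differences using CPM plus 0.1. A gene may have passed the filter through the high-score mice alone. Genotypes were tested with edgeR's quasi-likelihood test (2-sided, Benjamini-Hochberg over all genes). DESeq2 1.42.0 was run beside it on all genes with at least 1 count in any mouse. Nothing says that the mice came from separate litters, and each p-value measures the spread between these mice.

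The text names the 8 score genes, the 10 higher and 8 lower protein-coding genes with a mean of at least 1 CPM and no overlap that had the largest difference for their SE, *Mapt*, *Prnp* and *Adrb1*, and from each list the members with the highest mean level (3 from microglial, immune and astrocyte lists, 2 from the others). Other members are named because of their values, and some members that meet the rule are not reported here. The processing was tested on simulated counts for the genotype comparison with the score set as a covariate, with 200 of 17195 genes changed by a fold of 2. The test recovered 96% of these at an unadjusted p of 0.05 and 81.5% after adjustment, and it called 4.42% of the unchanged genes without adjustment. In the data the median size of the genotype difference in this model was 0.07 on the log2 scale. Recovery of changes smaller than a fold of 2 was not tested. The alternatives were other scores, DESeq2 size factors, no filter beyond 1 count and at least 10 counts in every mouse. Genotype means taken out, no genotype term, the score as a number, and each mouse left out in turn were the others.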

Additional observations from a re-analysis of the deposited data

Results flagged for a closer look

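In 9 of 190 groups of 4 mice, over 93 named genes, the scores and the totals, the highest or the lowest mouse stood apart from the other 3 by a gap past Dixon's 95% criterion, and chance gives about 1 in 20. Among the high-score mice, *PS19* replicate 1 had 8.14 CPM of *Csrnp1*, against 5.65 to 5.96 in the others, and 16.5 CPM of *Ifit2*, against 14.2 to 14.6. *PS19* replicate 4 had 91.3 CPM of *Rora*, a nuclear receptor gene, against 88.95 to 89.1. Among the low-score mice, *Adrb1-A187V;PS19* replicate 1 had 86.1 CPM of *Csmd1*, against 101 to 104, and *Adrb1-A187V;PS19* replicate 2 had 159 CPM of the immediate early gene *Egr1*, against 276 to 298. *PS19* replicate 2, also a low-score mouse, stood apart for 4 genes. It had 340.4 CPM of *Ttr* and 15.3 CPM of *Kl*, both choroid plexus genes, against 15.9 to 59.4 and 4.58 to 5.88 in the others. It had 18.7 CPM of *Cdhr1*, an olfactory bulb gene, against 6.99 to 8.92, and 692 CPM of *Atp6v1b2*, against 651 to 656. The differences of *Ttr*, *Kl* and *Cdhr1* between high-score and low-score mice therefore rest on few mice, since *Adrb1-A187V;PS19* replicate 4, a high-score mouse, had 526 CPM of *Ttr* and 29.5 CPM of *Kl*.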

How the results depend on the processing

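The division of the mice was the same under 12 other scores, among them the 6 microglial genes alone, *C4b* and *Gfap* alone, each gene left out and ranks in place of z-scores, with a gap of 1.12 to 1.28 where it could be given. The difference of the score between genotypes was 0.03 to 0.12 under the other z-scores and 0.5 with ranks (exact permutation test, p = 0.771 to 0.943). With 1 mouse left out it ran from −0.28 to 0.55 (exact permutation p = 0.514 to 0.886) and changed sign without *Adrb1-A187V;PS19* replicate 4 (−0.17) or 3 (−0.27) and without *PS19* replicate 3 (−0.28) or 2 (−0.17). The difference of the totals ran from −2540750 to −350572 counts with 1 mouse left out (exact permutation p = 0.114 to 0.8). Genes higher without overlap numbered 614 to 909 and genes lower 435 to 682 under the other filters, scalings and genotype means taken out. With 1 mouse left out they numbered 886 to 1018 and 695 to 864, since fewer mice overlap less often. Without a filter on low counts, genotype calls at an unadjusted p under 0.05 rose to 1185 with the score set and 1366 without it, and 95 and 66 genes passed adjustment. With 1 mouse left out they ran from 503 to 886 and from 425 to 663, with 0 to 2 genes past adjustment, and with the score as a number they were 608. The cause of these shifts in calls was not tested. The log2 differences of 191 named and listed genes moved by less than the spread between mice in all 1910 values under the alternatives tried. The sign changed in 49 of these values, 47 of them with 1 mouse left out, over 18 genes, all of whose sets overlapped. *Ttr* went from 0.71 to −1.28 and *Kl* from 0.73 to −0.19 without *Adrb1-A187V;PS19* replicate 4, *Ttr* to −0.19 without *Adrb1-A187V;PS19* replicate 2, and *Cdhr1* from −0.36 to 0.04 without *PS19* replicate 2. No paired analysis was possible because no litter is recorded for any mouse in the labels, and replicate numbers here follow the order of deposit. Depth limits genes of a few CPM, whose standard errors are wide.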

Other observations

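Genes outside the lists made up 536 of the 653 higher and 448 of the 461 lower genes, and 6 further families were formed from them after their values had been seen, so their counts are a description of the families that drew attention. Cholesterol synthesis stood among the lower genes. Of 20 enzymes of the pathway, 9 were lower in high-score mice without overlap and none was higher (median log2 difference −0.22), and 19 of 20 had a negative difference, 17 within *PS19* and 20 within *Adrb1-A187V;PS19* mice. *Idi1* was at 18, 16.8, 19.9 and 21.8 CPM in the high-score mice and 27.9, 28.8, 27.2 and 22.2 in the low-score mice (−0.47 ± 0.10), and *Mvd* at 15.1, 16.1, 17.4 and 17.4 vs. 26, 21.6, 21.7 and 20 (−0.43 ± 0.10). Of 9 genes that regulate sterols, 3 were lower, among them *Insig1* and *Stard4*, and 2 were higher, *Srebf1* (0.23 ± 0.06) and *Mylip* (0.12 ± 0.08).

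Innate immune receptors stood among the higher genes. Of 12 Toll-like receptor genes and partners tested, 8 were higher without overlap and none lower (median 0.66). *Tlr7*, a sensor of single-stranded RNA, was at 7.05, 5.02, 7.33 and 7.19 CPM vs. 3.45, 3.21, 3.66 and 2.54 (1.05 ± 0.18), and *Unc93b1*, which carries these receptors to endosomes, at 26.3, 25.5, 27 and 25.2 vs. 14.6, 16.8, 19.7 and 15.9 (0.64 ± 0.09). All 4 SLAM family receptors tested were higher, with *Ly9* at 4.34, 2.63, 3.75 and 2.83 vs. 1.38, 0.425, 0.9 and 0.575 (2.1 ± 0.34) and *Cd48* at 2.17, 2.45, 2.63 and 1.58 vs. 1.17, 0.614, 0.72 and 0.144 (1.83 ± 0.40). The other members of that family were not tested. Of 7 Siglec receptors tested, 5 were higher, and *Siglecf* was at 3.61, 3.18, 3.02 and 2.94 vs. 0.483, 0.85, 1.32 and 0.479 (2.02 ± 0.31). *Ly9*, *Cd48* and *Siglecf* were scarce in every mouse. Genes this scarce may have passed the filter through the high-score mice alone, which favours higher members in the SLAM and Siglec counts. Of 9 guanylate-binding protein genes tested, which interferons induce, 4 were higher, among them *Gbp3* at 11.4, 9.74, 11 and 9.96 vs. 7.39, 5.9, 6.12 and 5.41 (0.77 ± 0.13). The family genes are near-identical copies in part, and their counts are uncertain.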
